A study of Mus musculus with 4 samples.

Results

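Fos, Fosb, Fosl2, Jun, Junb, Jund, Egr1, Egr2, Egr3 and Atf3 are immediate early transcription factor genes of the AP-1 and Egr families. They were chosen by name, and all 10 were found among the 16375 genes listed in an RNA-seq table of mouse bone marrow-derived macrophages (BMDMs). The 4 groups had 1 library each: WT and LNCKO cells, both without butyrate (control) and with it, where LNCKO denotes knockout of the long noncoding RNA lncLy6c and butyrate was added at 500 µM for 24 h. According to the methods, M-CSF was used to turn the bone marrow cells of the mice into these macrophages. The methods describe C57BL/6 mice that were a few weeks old and of either sex, with the knockout made by CRISPR-Cas9 on a C57BL/6J background, and the number of mice behind a library is not given in the sources used here. With 1 library per group, no difference could be tested and no p-value is given, and each ratio compares a pair of libraries rather than a pair of conditions.

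The libraries held between 53363944 and 65521713 fragments. Intervals given below are exact 95% counting intervals of the fragments behind a value, and they cover counting error only, not the spread between cultures or animals. All 10 macrophage markers examined had a mean FPKM of at least 1, with a summed FPKM of 2703 and 3622 in the WT control and butyrate libraries and of 2315 and 1600 in those of LNCKO. The same order of libraries is used wherever 4 values are given in a row. Most of this difference was the lysozyme gene Lyz2, at 1972, 2871, 1609 and 869.9, and the other 9 markers summed to 731, 750.9, 705.7 and 730.2. All 10 markers of neutrophils and granulocyte precursors also passed this level and summed to 2618, 3037, 2267 and 2187, so that RNA of granulocyte genes was present beside that of macrophage genes. In bulk RNA, fewer cells that express a gene and less of its RNA per cell cannot be told apart. The 4 Y-linked genes examined summed to an FPKM of 0.136 and 0.0658 in the WT libraries and of 10.3 and 11.5 in the LNCKO libraries, so that sex and genotype cannot be told apart. No listed gene carried the symbol lncLy6c, and no other name for it was searched, so the LNCKO labels were not checked on the deleted gene.

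AP-1 is a dimer of basic leucine zipper proteins, in which a Fos protein must pair with a Jun protein, whereas Jun proteins can also pair with one another or with ATF proteins. The Egr proteins bind GC-rich sites through zinc fingers. Both groups of genes are switched on within minutes by growth factors, M-CSF, cytokines or handling stress through MAPK signalling, without the need for new protein synthesis, and their transcripts are short-lived. In cells of the macrophage lineage, Egr1 and Egr2 are known for their part in the choice of the macrophage over the neutrophil fate, and Jun, Fos and Junb for their part in inflammatory and osteoclast gene programmes. Many of the genes carry CRE-like sites, bound by CREB and ATF proteins, and CArG boxes, bound by serum response factor, near their starts.

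To show what such control regions look like, 3 promoter windows are printed, those of Fos, the most abundant gene of the group per exon length, and of Fosb and Egr2, which had the lowest ratios with butyrate in WT. The windows are RefSeq sequences of build GRCm38.p6 and run from 250 bases before to 50 bases after the start of a transcript, 5′ to 3′ on the strand of the gene. Capitals mark matches on either strand to TGANTCA (the TRE bound by AP-1), TGACGTCA (the CRE), TGACG (the core of a CRE, which any full CRE also holds), the CArG box, GCGNGGGCG (the Egr site) and CCAAT. Fos lies in chr12:85473640-85473939 on the plus strand, Fosb in chr7:19309996-19310295 on the minus strand and Egr2 in chr10:67537619-67537918 on the plus strand. Egr2 had 5 windows, and the one with the most matches is shown.
Fos: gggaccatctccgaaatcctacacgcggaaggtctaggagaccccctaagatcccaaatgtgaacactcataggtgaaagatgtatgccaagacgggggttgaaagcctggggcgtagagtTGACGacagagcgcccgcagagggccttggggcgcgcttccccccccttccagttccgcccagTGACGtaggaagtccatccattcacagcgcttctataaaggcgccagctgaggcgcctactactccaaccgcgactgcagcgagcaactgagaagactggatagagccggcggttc
Fosb: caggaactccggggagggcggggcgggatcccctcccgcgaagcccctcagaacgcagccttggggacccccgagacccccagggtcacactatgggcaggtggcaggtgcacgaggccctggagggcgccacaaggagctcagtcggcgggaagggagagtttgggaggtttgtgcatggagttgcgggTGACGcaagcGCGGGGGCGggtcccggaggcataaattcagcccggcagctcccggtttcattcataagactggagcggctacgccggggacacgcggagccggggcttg
Egr2: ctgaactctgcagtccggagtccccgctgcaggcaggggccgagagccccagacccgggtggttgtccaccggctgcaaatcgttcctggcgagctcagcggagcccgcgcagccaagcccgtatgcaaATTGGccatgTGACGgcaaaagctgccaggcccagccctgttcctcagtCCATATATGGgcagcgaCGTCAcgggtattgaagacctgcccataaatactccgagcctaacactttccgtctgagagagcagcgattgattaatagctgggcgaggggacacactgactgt

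The Fos window held 2 TGACG cores, the first bases of which lay 129 and 66 bases before the start. The Fosb window held a TGACG core 60 bases and an Egr site 50 bases before the start. In the Egr2 window, a CArG box lay 72 bases before the start, between a TGACG core at 111 bases on the printed strand and another at 55 bases on the opposite strand. A CCAAT box on the opposite strand lay 121 bases before the start of Egr2.

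Windows were matched for 8 of the 10 genes, with none for Egr1 and Egr3. No window of these 8 genes held an exact match to the TRE or the full CRE. Of all 26742 genes with a window, 8.97% and 2.05% held one in at least 1 of their windows. Stretches that differ from the searched letters, such as TGACATCA in the Jun window, were not counted. A TGACG core was found for 5 of the 8 genes (Fos, Fosb, Junb, Egr2 and Atf3) and for 23.2% of all genes. A CArG box was found for 1 of the 8 (Egr2) and for 1.82% of all genes, an Egr site for 2 (Fosb and Fosl2) and for 6.33%, and a CCAAT box for 4 (Jun, Junb, Egr2 and Atf3) and for 41%. The RefSeq starts lay 671 bases from the start of the gene model used for the level for Fosl2, 1210 for Jund, 2394 for the printed window of Egr2 and 34706 for Atf3, and at most 30 bases for the other 4. These matches describe letters in a window and not binding.

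Levels of different genes were compared per length of exon, as fragments per kb of exon per 1000000 fragments. On this scale the mean over the 4 libraries was highest for Fos at 205.3, followed by Junb at 113.4, Jun at 81.5, Atf3 at 77.7, Jund at 73.4 and Egr1 at 44.8. The lower end was formed by Fosl2 at 11.6, Egr3 at 4.13, Egr2 at 2.29 and Fosb at 1.15. The ranges over libraries did not overlap between Fos and Junb or between Junb and Jun, but they did among Jun, Atf3 and Jund and between Egr2 and Fosb. Within each library Jun was above Atf3 and Jund and Egr2 was above Fosb, whereas Atf3 was below Jund in WT control and above it in the other 3 libraries. The scale takes all fragments as exonic, which was not checked. Egr1, Egr2 and Egr3 thus differed widely in level, with Egr1 far above its relatives in every library, as did Fos and Fosb.

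**Figure D1:**
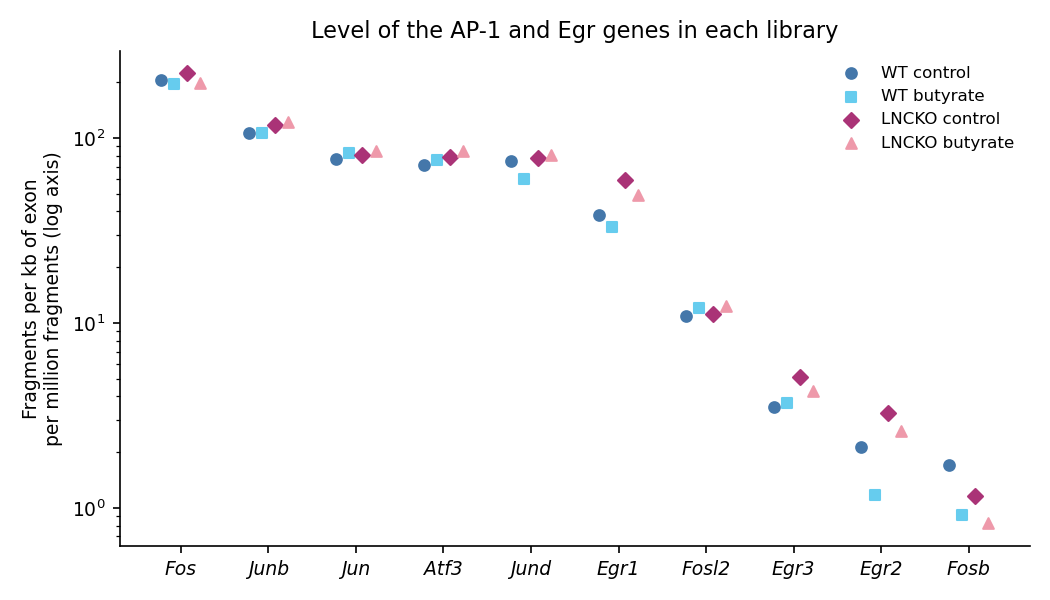
Level of each gene (x axis, ordered by its mean) in each of the 4 libraries (symbols), in fragments per kb of exon per 1000000 fragments on a log axis. Fos lies at 195.4 or more in all 4 libraries and Fosb at 1.70 or less, and the libraries spread most for Egr1, Egr2 and Fosb.

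Among the Fos proteins, Fos (chr12:85473890-85477273, plus strand, GRCm38) is the classical partner of Jun. Its FPKM was 142.5 in WT control and 135.8 in WT butyrate, against 155.4 in LNCKO control and 137.2 in LNCKO butyrate. Both butyrate libraries lay below both control libraries. The FPKM ratio of butyrate to control was 0.953 (0.937 to 0.969) in WT and 0.883 (0.868 to 0.897) in LNCKO. After the libraries were scaled by their median ratio, the first of these was 0.992 (0.976 to 1.01). LNCKO against WT gave 1.09 (1.07 to 1.11) without butyrate and 1.01 (0.994 to 1.03) with it.

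Fosb (chr7:19302696-19310051, minus strand), a Fos protein best known from repeatedly stimulated neurons, was near the limit of what was considered expressed. Its FPKM was 1.44 in WT control and 0.776 in WT butyrate, against 0.983 in LNCKO control and 0.701 in LNCKO butyrate, from 597, 338, 386 and 338 fragments. WT control stood above the other 3 libraries. The FPKM ratio with butyrate was 0.539 (0.471 to 0.617) in WT and 0.713 (0.615 to 0.827) in LNCKO, and that of LNCKO to WT was 0.683 (0.5996 to 0.778) without butyrate and 0.903 (0.775 to 1.05) with it. Fosb was the gene of the group with the lowest ratio with butyrate in both genotypes, and the one gene with a ratio of LNCKO to WT below 1.

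Fosl2 (chr5:32135801-32157842, plus strand) encodes Fra-2, a Fos protein without the strong activation domain of Fos. Its FPKM was 4.77 in WT control and 5.27 in WT butyrate, against 4.89 in LNCKO control and 5.43 in LNCKO butyrate. Both butyrate libraries lay above both control libraries, the opposite of Fos and Fosb. The FPKM ratio with butyrate was 1.10 (1.07 to 1.14) in WT and 1.11 (1.07 to 1.15) in LNCKO, whereas the genotypes differed by less than the counting error, at 1.02 (0.988 to 1.06) and 1.03 (0.998 to 1.07).

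Of the Jun proteins, Jun (chr4:95049034-95052222, minus strand) is the strongest activator. Its FPKM was 76.8 in WT control and 82.7 in WT butyrate, against 81.1 in LNCKO control and 85.3 in LNCKO butyrate, the narrowest spread of the 10 genes, with the highest library 1.11 times the lowest. Each butyrate library lay above the control library of its genotype, by a factor of 1.08 (1.05 to 1.10) in WT and 1.05 (1.03 to 1.08) in LNCKO. The ratio of LNCKO to WT was 1.06 (1.03 to 1.08) without butyrate and 1.03 (1.01 to 1.05) with it, and the interval of the latter held 1 after median-ratio scaling. Jun overlaps the antisense gene Junos, and whether the counting used strand is not known, so reads of the pair cannot be told apart.

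Junb (chr8:84974484-84978718, minus strand) encodes a weaker activator that restrains Jun in many settings. Its FPKM was 63.1 in WT control and 63.6 in WT butyrate, against 70.1 in LNCKO control and 72.9 in LNCKO butyrate. Both LNCKO libraries lay above both WT libraries. LNCKO against WT gave an FPKM ratio of 1.11 (1.09 to 1.14) without butyrate and 1.15 (1.12 to 1.17) with it. With butyrate the ratio was 1.01 (0.984 to 1.03) in WT, lower than 1 when each library was rescaled to the same sum and higher than 1 after median-ratio scaling, and 1.04 (1.02 to 1.06) in LNCKO. Part of Junb overlaps Prdx2 on the opposite strand.

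Jund (chr8:70698949-70700616, plus strand), the Jun gene that is usually expressed without a stimulus, is 1 of the 7 MAPK genes on which the study itself focused. Its FPKM was 75.3 in WT control and 60.02 in WT butyrate, against 77.7 in LNCKO control and 80.5 in LNCKO butyrate, from 7075, 5923, 6914 and 8798 fragments. WT butyrate stood below the other 3 libraries, which lay close together. The FPKM ratio with butyrate was 0.798 (0.770 to 0.826) in WT and 1.04 (1.00 to 1.07) in LNCKO, and it was the one gene of the group for which the counting intervals lay on opposite sides of 1. When each library was rescaled to the same sum, the LNCKO interval held 1, while the WT interval stayed below 1 under each scaling tried. The ratio of LNCKO to WT was 1.03 (0.999 to 1.07) without butyrate and 1.342 (1.298 to 1.387) with it. Jund overlaps the antisense gene Gm11175 and has a single exon, and its fragments were recovered on a length of 1667 bases rather than 1668.

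Egr1 is the most abundant Egr gene and a standard readout of ERK activity. Its FPKM was 33.3 in WT control and 28.7 in WT butyrate, against 51.1 in LNCKO control and 42.5 in LNCKO butyrate. Both LNCKO libraries lay above both WT libraries, and within each genotype the butyrate library was the lower one. The FPKM ratio of LNCKO to WT was 1.53 (1.49 to 1.57) without butyrate and 1.48 (1.44 to 1.52) with it. The ratio of butyrate to control was 0.861 (0.836 to 0.886) in WT and 0.832 (0.813 to 0.851) in LNCKO.

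Egr2 (chr10:67535475-67542188, plus strand) is the Egr gene linked to alternative activation of macrophages. Its FPKM was 1.08 in WT control and 0.594 in WT butyrate, against 1.65 in LNCKO control and 1.32 in LNCKO butyrate, from 408, 236, 592 and 581 fragments. The order of the 4 libraries was the same as for Egr1, and the highest library was 2.78 times the lowest, the widest spread of the 10 genes. The FPKM ratio of LNCKO to WT was 1.53 (1.35 to 1.74) without butyrate and 2.22 (1.91 to 2.60) with it. The ratio of butyrate to control was 0.551 (0.467 to 0.648) in WT and 0.799 (0.712 to 0.898) in LNCKO.

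Egr3 (chr14:70077203-70082614, plus strand), which is closely related to Egr2 and itself a target of Egr1, had an FPKM of 2.85 in WT control and 2.99 in WT butyrate, against 4.13 in LNCKO control and 3.48 in LNCKO butyrate. Both LNCKO libraries again lay above both WT libraries. The FPKM ratio of LNCKO to WT was 1.45 (1.33 to 1.58) without butyrate and 1.17 (1.07 to 1.27) with it. With butyrate the ratio was 1.05 (0.957 to 1.15) in WT and 0.844 (0.779 to 0.915) in LNCKO. All 3 Egr genes were thus higher in LNCKO than in WT in both comparisons, under each scaling tried.

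Several marker lists of other cells differed between the genotypes in the same direction as the Egr genes. The 6 basophil and mast cell markers, 3 of which had a mean FPKM of at least 1, summed to 8.60 and 5.92 in WT control and WT butyrate and to 14.2 and 14.3 in LNCKO control and LNCKO butyrate, and none was at 0. The largest part of this sum in each library was the basophil protease Mcpt8, at an FPKM of 5.85, 2.96, 10.1 and 9.23. As FPKM is per genomic span, a short gene weighs more in such a sum. By fragments, Mcpt8 had 1025, 544, 1676 and 1880 and Kit had 1888, 2140, 1884 and 1813. The list did not move together, since Ms4a2, Gata2 and Kit were higher in WT butyrate than in WT control. Against WT, Fcer1a was lower in LNCKO without butyrate and Kit was lower in LNCKO with it. The erythroid markers, of which 6 of 7 were listed, summed to 5.99 and 6.68 in the WT libraries and to 22.6 and 64.6 in the LNCKO libraries, with Klf1 at 0 in 1 library. The part of these cells, and of sex, in the Egr values was not tested.

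Atf3 (chr1:191170296-191218039, minus strand), a stress-induced repressor that pairs with Jun proteins and damps inflammatory genes in macrophages, had an FPKM of 3.22 in WT control and 3.42 in WT butyrate, against 3.55 in LNCKO control and 3.83 in LNCKO butyrate. Its deposited FPKM is low because the gene spans 47744 bases, most of them intronic. The FPKM ratio with butyrate was 1.06 (1.03 to 1.09) in WT, with an interval that held 1 when each library was rescaled to the same sum, and 1.08 (1.05 to 1.11) in LNCKO. The ratio of LNCKO to WT was 1.101 (1.069 to 1.134) without butyrate and 1.12 (1.09 to 1.15) with it. The libraries stood in the same order as those of Junb.

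The question of whether butyrate moved the group as a whole was addressed by counting. On the scale of log2(FPKM + 1), 9 of the 10 genes passed the filter of a mean FPKM of at least 1, which Fosb missed at 0.975. None of the 9 was 1.5-fold higher or lower with butyrate in WT, against 0.808% and 0.441% of the 6809 genes that passed, nor in LNCKO, against 0.294% and 0.132%. The scale understates the ratios of low genes, so that Egr2, with a plain ratio of 0.551 in WT, stood at -0.38. With each library rescaled to 1000000, 11021 genes passed the filter, all 10 of the group among them. In WT, 2 of the 10 (Fosb and Egr2) were then at least 1.5-fold lower and none higher. The shares of all genes were 2.2% lower and 2.41% higher. Without this rescaling, 5 of 9 were higher in WT by any size, against 36.9% of all genes, and their median log2 change was 0.01 against -0.04 for all genes. In LNCKO, 5 of 9 were higher, against 42.2%, and the medians were 0.05 and -0.02.

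The median therefore hid a split within the group. By the counting interval of the plain ratio, 3 of the 10 genes (Fosl2, Jun and Atf3) were higher with butyrate in both genotypes. The share was 7.06% of the 6801 genes that passed the filter and were matched to the GENCODE M21 gene models. Matched genes whose span did not give whole fragments were not left out, and their fragments were rounded. Fosb, below the filter, is counted among the 10 but not among the 6801. Another 4 (Fos, Fosb, Egr1 and Egr2) were lower in both, against 17.5%, and Jund alone went in opposite directions, against 14.5%. Junb and Egr3 each had an interval that held 1. Fos left the second of these sets after median-ratio scaling, and Atf3 and Jund left theirs after rescaling to 1000000, when Junb went in opposite directions. With median-ratio scaling Junb was higher in both. Genes with many fragments have narrow intervals, and the highly expressed genes of the group leave 1 outside the interval more readily than a typical gene.

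**Figure D2:**
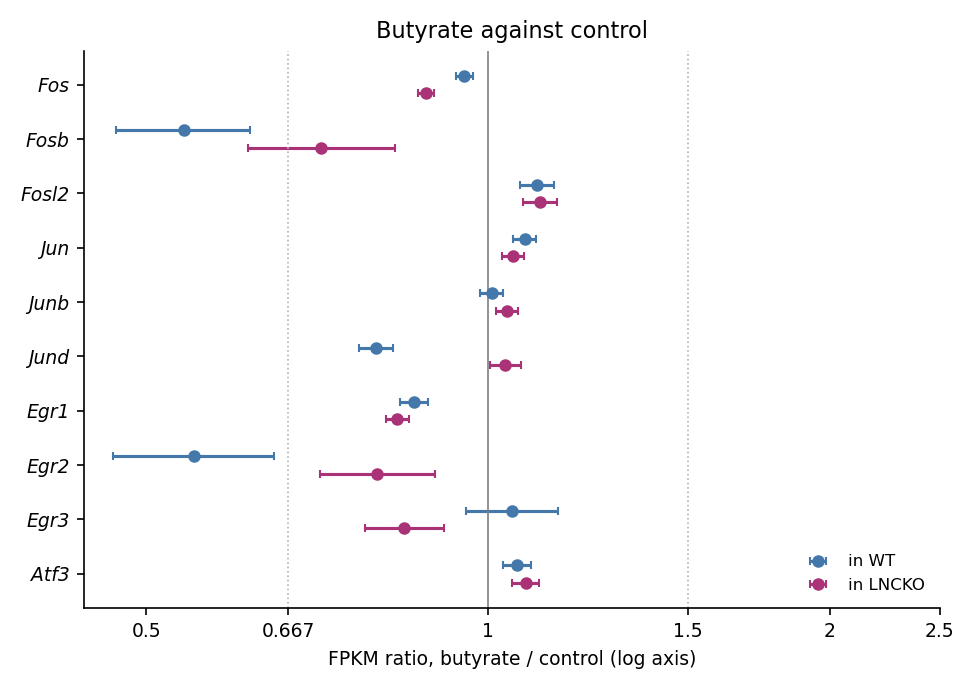
FPKM ratio of butyrate to control (x axis, log scale) for each gene in WT and in LNCKO, with 95% counting intervals as bars and 1.5-fold as dotted lines. Fosb and Egr2 in WT lie lowest at 0.539 and 0.551, Fosl2, Jun and Atf3 lie above 1 in both genotypes, and Jund lies at 0.798 in WT and 1.04 in LNCKO.

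Between the genotypes, the comparison asks what loss of lncLy6c goes with. Without butyrate, 1 of 9 genes, Egr1, was at least 1.5-fold higher in LNCKO than in WT on the log2(FPKM + 1) scale, at 0.60, against 0.338% of all genes, and none was 1.5-fold lower, against 0.279%. After median-ratio scaling, Egr1 stood at 0.58 and no longer reached 1.5-fold. With butyrate, none of the 9 passed 1.5-fold in either direction, against 0.764% higher and 0.734% lower, although Egr1 stood at 0.55, Egr2 at 0.54 and Jund at 0.42. Median-ratio scaling turned these shares to 0.588% higher and 0.852% lower. All 9 genes were higher by some amount in LNCKO in both comparisons, against 56.7% of all genes without butyrate and 64.2% with it. After median-ratio scaling, 9 of 9 remained higher without butyrate and 6 of 9 with it, where Fos, Fosl2 and Jun were lower, against 49.9% and 50.4% of all genes. Their median log2 change was 0.12 against 0.01 for all genes without butyrate and 0.17 against 0.04 with it.

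The counting intervals showed 6 of the 10 genes (Jun, Junb, Egr1, Egr2, Egr3 and Atf3) higher in LNCKO in both comparisons. This was so for 17.6% of the same 6801 genes, which leave out Fosb, and Jun left the set of 6 after median-ratio scaling. None of the 10 was lower in both, against 7.1%, and none went in opposite directions, against 15.7%. Without butyrate the largest ratios were those of the 3 Egr genes, and with it those of Egr2, Egr1 and Jund, and for Fos, Fosl2 and Jun the ratios stayed within 1.10. For Jund the LNCKO and WT libraries differed in the presence of butyrate and had an interval that held 1 in its absence. Direction calls that moved with scaling concerned Fos, Fosl2, Jun and Jund, and none of the Egr genes.

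**Figure D3:**
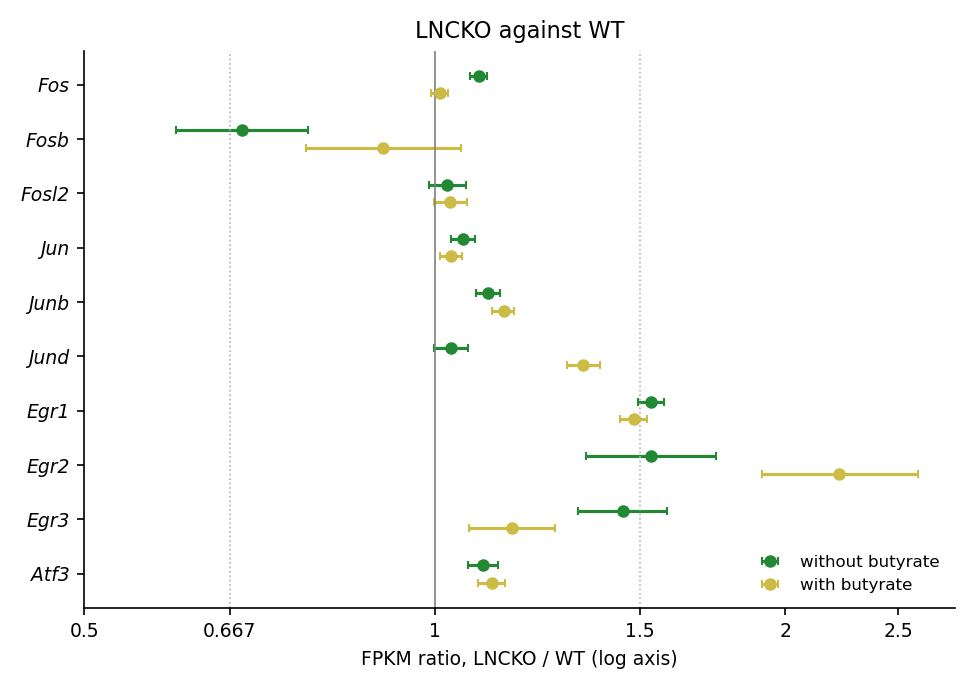
FPKM ratio of LNCKO to WT (x axis, log scale) for each gene without and with butyrate, with 95% counting intervals as bars and 1.5-fold as dotted lines. Egr1 lies at 1.53 and 1.48, Egr2 at 1.53 and 2.22, and Jund at 1.03 and 1.34, and Fosb lies below 1.

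**Figure D4:**
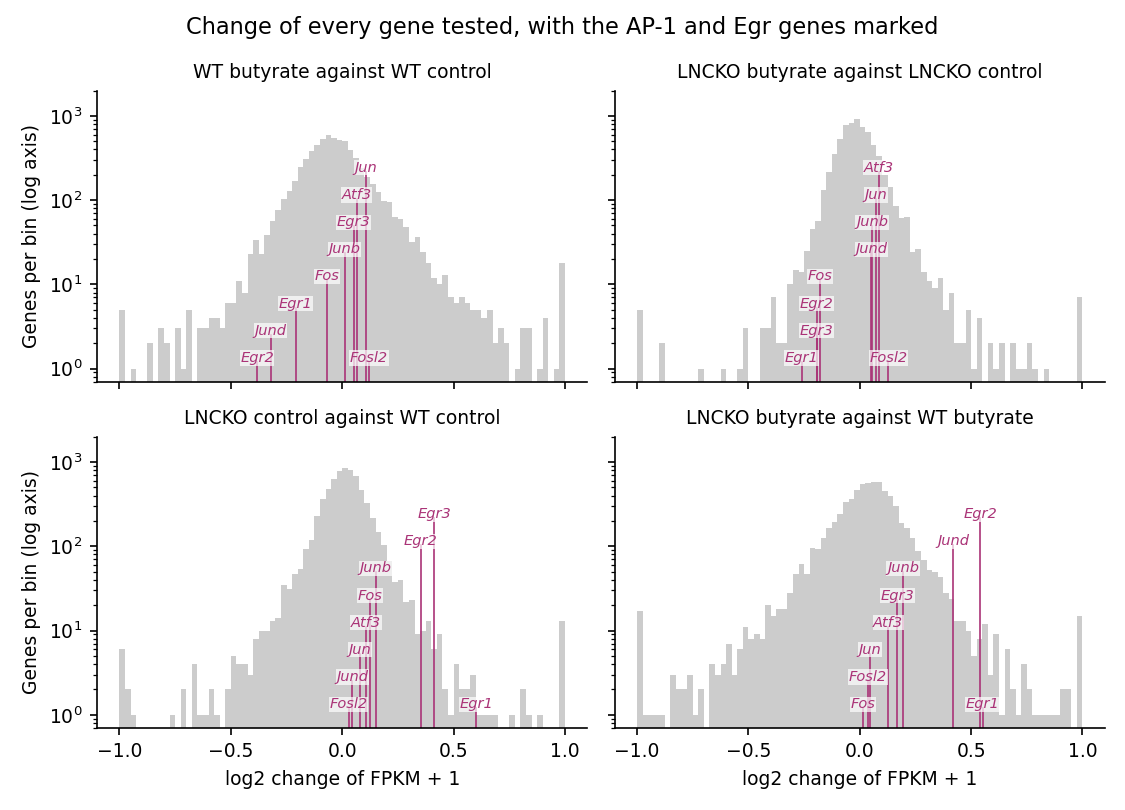
Histograms (log count axis) of the log2 change of FPKM + 1 of 6809 genes in the 4 comparisons, with changes beyond 1 drawn in the outermost bins, and the 9 genes of the group that passed the filter as labelled lines whose heights only separate the names. Egr1 at 0.60, Egr3 at 0.41 and Egr2 at 0.35 lie in the upper tail of LNCKO control against WT control. Egr1, Egr2 and Jund lie there in LNCKO butyrate against WT butyrate. In the lower tail of butyrate against control lie Egr2 and Jund in WT, and Egr1, Egr2, Egr3 and Fos in LNCKO. The tails named are percentiles of 98.2 or more and of 2.85 or less among the genes tested.

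The response to butyrate in WT less that in LNCKO, on the log2(FPKM + 1) scale, had a median of -0.01 for the 9 genes and -0.03 for all genes. None of the 9 passed 1.5-fold higher or lower, against 0.793% and 0.661% of all genes. Jund had a difference of -0.37 and Egr2 of -0.19, and this order turned with no pseudocount, at -0.38 and -0.54, and with a pseudocount of 0.1, rescaling to 1000000 or fragments per 1000000. Egr3 had the most positive at 0.25, followed by Fos at 0.11. For Jund the LNCKO response was near 0 and the WT response negative, whereas for Egr3 the WT response was near 0 and the LNCKO response negative. The difference between the responses could not be tested.

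The genes with the pattern most like that of Egr1 over the 4 libraries, by the distance between centred log2(FPKM + 1) values among 434 genes with a range of at least 50% of that of Egr1, were Nr4a1 at a distance of 0.068, Pim2 at 0.127 and Serpina3g at 0.139. Nr4a1, an immediate early nuclear receptor required for Ly6C-low monocytes, had an FPKM of 0.840 in WT control and 0.511 in WT butyrate, against 1.62 in LNCKO control and 1.23 in LNCKO butyrate. Its libraries stood in the same order as those of Egr1 and Egr2. The log2(FPKM + 1) scale understates the ratios of a low gene such as Nr4a1 far more than those of Egr1. The distance of Nr4a1 to Egr1 therefore holds for this scale only, and no distance was taken on plain ratios. For Jund the nearest of 2050 genes were Ripk3 at 0.027, Mylip at 0.030 and Dyrk1b at 0.033, with Ripk3 at an FPKM of 12.8, 10.3, 13.5 and 13.8. For Fos, which varied little, the nearest of 5188 genes were Mcm5 at 0.018, Hcfc1 at 0.019 and Senp2 at 0.020. With 4 values per gene and so many genes searched, close patterns are found for any gene.

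**Figure D5:**
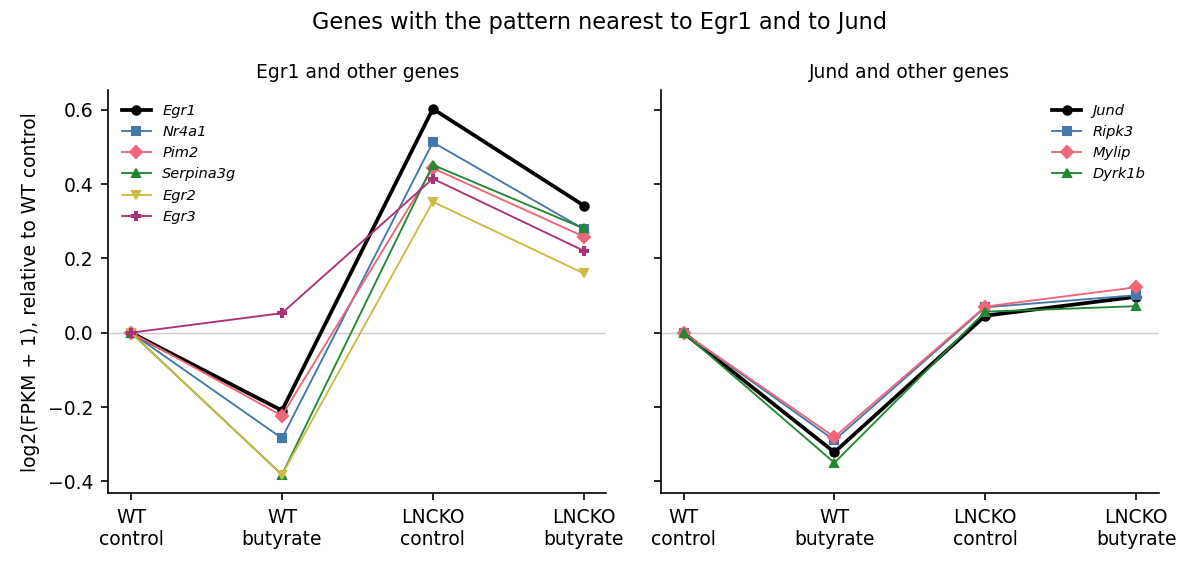
log2(FPKM + 1) relative to WT control in the 4 libraries, joined by lines for each gene only to guide the eye, for Egr1 with its 3 nearest genes and Egr2 and Egr3 (left) and for Jund with its 3 nearest genes (right). Egr1, Egr2 and Nr4a1 are lowest in WT butyrate and highest in LNCKO control, and Jund is low in WT butyrate alone.

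Other immediate early genes were examined as a list of 15, of which 13 had a mean FPKM of at least 1. With butyrate in WT, 11 of the 13 were lower and 2 higher, against 63.1% of all genes lower, with a median log2 change of -0.24 against -0.04 for all genes. The 5 B cell markers that passed the filter were also lower in this comparison, 5 of 5 with a median of -0.39, and their part in the values of this list was not tested. The antiproliferative gene Btg2 had an FPKM of 68.6 in WT control and 48.1 in WT butyrate, against 81.3 in LNCKO control and 72.0 in LNCKO butyrate. Zfp36, which encodes an RNA-binding protein that destabilises cytokine transcripts, had 156.2, 130.3, 170.3 and 163.9. Both were lowest in WT butyrate and highest in LNCKO control, like Egr1. Myc, the growth-promoting transcription factor, went the other way, at 8.28, 15.6, 11.2 and 10.4. It was the 1 gene of the list past 1.5-fold with butyrate in WT on the log2(FPKM + 1) scale. Nr4a1, at a plain FPKM of 0.840 in WT control and 0.511 in WT butyrate, did not pass on this scale, which understates the ratios of low genes. In LNCKO, 9 of 13 were lower with butyrate, against 57.8% of all genes, and the median was -0.06 against -0.02 for all genes.

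The same list was higher in LNCKO than in WT for 10 of 13 genes in either comparison, though not for the same 10, against 56.7% of all genes without and 64.2% with butyrate, with a median of 0.12 without and 0.27 with butyrate against 0.01 and 0.04 for all genes. Nr4a1, Btg2 and Zfp36 were higher in LNCKO in both comparisons and Klf4 in neither. Dusp2 and Klf2 were lower in LNCKO without butyrate only, and Klf6 and Myc with it only.

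Of 13 further AP-1 and Maf leucine zipper genes, 6 passed the filter. Their medians were 0.03 and 0.01 for butyrate in WT and LNCKO and 0.06 and 0.05 for LNCKO against WT without and with butyrate, and none passed 1.5-fold. Fosl1, the remaining Fos gene, did not exceed an FPKM of 0.0443 in any library. Nab1 and Nab2, which Egr factors induce, encode corepressors of the Egr proteins. Nab1 had an FPKM of 2.44, 1.96, 2.28 and 2.21 and Nab2 of 3.50, 3.21, 3.86 and 3.77. As the deposited FPKM is per whole genomic span, these values are not levels per exon length. The ratio with butyrate was 0.803 (0.773 to 0.834) for Nab1 and 0.917 (0.852 to 0.986) for Nab2 in WT, and in LNCKO both intervals held 1, at 0.966 (0.931 to 1.003) and 0.976 (0.912 to 1.04).

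Genes that act upstream of the group, which are MAPK cascade kinases and the factors Srf, Elk1, Elk3, Elk4 and Creb1, passed the filter for 14 of 19. Their medians were -0.06 and -0.02 for butyrate in WT and LNCKO and 0.00 and 0.08 for LNCKO against WT without and with butyrate, and none passed 1.5-fold in either direction. Mapk3, which encodes ERK1, had an FPKM of 24.5, 24.8, 23.1 and 23.3. Among 13 genes known as AP-1 or Egr targets, 12 passed, with medians of 0.01, 0.08, 0.15 and 0.08 in the same 4 comparisons. With butyrate in WT, 1 of the 12 (Hmox1) was at least 1.5-fold lower, against 0.441% of all genes. For LNCKO against WT with butyrate, 2 of the 12 (Hmox1 and Plau) were at least 1.5-fold higher, against 0.764%. The 12 genes gave no other change past 1.5-fold in these comparisons. The heme oxygenase gene Hmox1 stood lowest in WT butyrate, at an FPKM of 33.9 in WT control and 21.5 in WT butyrate, against 42.8 in LNCKO control and 46.2 in LNCKO butyrate. The 7 heat shock genes, which respond to stress on proteins, all passed and had medians of 0.00, -0.01, -0.01 and 0.05.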

How the data were processed

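RNA-seq of mouse BMDMs from 4 samples was analysed, with groups taken from the sample titles, genotype and treatment labels. The names of both LNCKO libraries do not spell out their condition. The authors deposited FPKM values per gene and no counts. The submitters' processing notes list STAR 2.5.0c, Picard 1.126, bedtools 2.17.0, HTSeq 0.6.0, DESeq2 3.0 and build GRCm38, without their roles. The methods name TRIzol and an MGISEQ-2000 platform and the labels RNeasy, TruSeq and Illumina, and the files do not settle which was used.

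The deposited FPKM was divided by the whole genomic span of a gene: with GENCODE M21 spans, 98.6% of 16342 matched genes gave whole fragments (within 0.05) in all libraries, against 7.48% with exon length. Junb and Jund were whole on 3868 and 1667 bases, the shortest lengths that fitted. The main scale was the log2 ratio of FPKM + 1, over genes whose mean FPKM reached 1, beside plain ratios with exact conditional binomial intervals. A gene was counted as called past 1.5-fold. Members and gene lists were chosen with earlier results of these data known. The genes named are the 10 members, the 3 genes nearest in pattern to Fos, Egr1 and Jund, and genes of other lists where a result is about them. The TGACG core was searched in addition to the 5 other motifs after the files were seen. Other lists counted, namely B cells, T and NK cells, stromal cells and the MAPK genes the study names, are given in the closing section. The steps were tested on simulated data. Python 3.11.15, numpy 2.4.6, pandas 2.3.3, scipy 1.17.1 and matplotlib 3.10.9 were used. Alternatives were pseudocounts of 0.1 and none, a filter of 5 and none, median-ratio scaling, rescaling to 1000000 per library, fragments per 1000000, and limits of 1.25-fold and 2-fold.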

Additional observations from a re-analysis of the deposited data

Results flagged for a closer look

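Jund was singled out because its FPKM ratio of butyrate to control lay below 1 in WT, at 0.798, and above 1 in LNCKO, at 1.04, with both counting intervals leaving out 1. With 1 library per group the difference was not tested, and 14.5% of 6801 genes went in opposite directions by the same rule.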

How the results depend on the processing

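No paired analysis was possible because each group had 1 library and no test was made, and for the same reason no library was left out. The medians of the group are smaller than the 0.2 taken as a move, and 9 of 35 had the other sign under an alternative. They ranged from -0.08 to 0.07 for butyrate in WT, -0.09 to 0.07 for butyrate in LNCKO and -0.05 to 0.03 for the response in WT less that in LNCKO, so that no direction is read from these 3. For LNCKO against WT they ranged from 0.10 to 0.14 without and 0.12 to 0.22 with butyrate. Of 350 values of single genes under an alternative, 324 stayed within 0.2 and 26 moved. Of these 350, 6 had the other sign, all with a size under 0.1. Counts of genes past 1.5-fold under the alternatives, including a lower and a higher fold limit, stayed within 1.5 times the main count in 74 of 90 cases and moved in the other 16. For genes lower with butyrate in WT, the main count of 0 became 2 (Fosb and Egr2) after rescaling to 1000000 per library and with fragments per 1000000, and 1 (Egr2) with a pseudocount of 0.1, with none and under the lower fold limit. For genes higher in LNCKO without butyrate, the main count of 1 (Egr1) became 2 (Egr1 and Egr2) with no pseudocount and after rescaling, 3 under the lower fold limit, and 0 under the higher fold limit and after median-ratio scaling. For genes higher in LNCKO with butyrate, the main count of 0 became 2 (Egr1 and Egr2) after rescaling, 1 (Egr2) with a pseudocount of 0.1, with none and with fragments per 1000000, and 3 (Jund, Egr1 and Egr2) under the lower fold limit. For the response in WT less that in LNCKO, the main count of 0 lower became 1 (Jund) under the lower fold limit. A smaller pseudocount and fragments rather than a value per span both take less from the ratio of a low gene, by construction. Rescaling and fragments per 1000000 also raise most values against the filter and the pseudocount, so that 11021 and 11738 genes rather than 6809 and 10 members rather than 9, now with Fosb, were tested, and their moves are not those of scale alone. Rescaling moved the median of all genes from -0.04 to -0.10 for butyrate in WT.

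The limits are these. Each group is 1 library, the WT and LNCKO libraries differ in Y-linked genes, and Fosb and Egr2 rest on as few as 338 and 236 fragments in a library.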

Other observations

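The 7 B cell markers, 5 of which had a mean FPKM of at least 1, summed to an FPKM of 209 in WT control and 163.6 in WT butyrate, against 213.3 in LNCKO control and 215.7 in LNCKO butyrate, so that WT butyrate stood below the other 3 libraries as it did for Jund. The part of B cells in the Jund values was not tested. The 8 T and NK cell markers summed to 15.3, 19.8, 19.9 and 17.3, and the 8 stromal and endothelial markers to 10.2, 9.06, 4.03 and 6.59, in the same order of libraries, and no gene of these 3 lists was at 0 in any library. Of the 7 MAPK genes on which the study focused, 6 passed the filter, with medians of -0.27 for butyrate in WT, -0.08 for butyrate in LNCKO, 0.09 for LNCKO against WT without butyrate and 0.20 with it. Jund and Nr4a1 are among these 6 genes.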
